A study of Mus musculus with 6 samples.

Results

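The genes described here build and run the vesicle traffic of the secretory and endosomal pathways. They were taken by their names in the array's probe annotation: the Rab, Arf, Vps, Snx, Tmed and Trappc genes, the Sec genes of the vesicle coats and of the translocon, the Ssr genes, the COPI coat subunits and the subunits of the AP-1 to AP-4 adaptors. The rule gave 137 genes on 175 cDNA clones, of 6788 genes with 1 symbol and 15600 clones in all, and 131 of them were measured on at least 4 of the 6 arrays, against 6463 of all genes. Mouse neuroblastoma cells of the Neuro-2a line were transiently transfected with human TBP carrying 59 glutamine codons fused to GFP (59Q) or with the GFP vector pEGFPN3 alone (N3). Total RNA taken 60 h after transfection was labelled with Cy5 or Cy3, and each two-colour array set 59Q directly against N3. The 59Q sample carried Cy5 on 4 arrays (replicates 1, 3, 4 and 6) and Cy3 on the other 2 (replicates 2 and 5). Both pools of cells express GFP, and no untransfected sample and no TBP with a shorter repeat are among the arrays. An effect of extra TBP and one of the longer repeat therefore cannot be told apart. The paper describes transfection with a reagent and also by nucleofection, without saying which gave the array RNA. RNA came from whole transfected cultures, and the paper reports that only part of the cells were transfected. Fewer cells of a kind and less RNA per cell thus cannot be told apart.

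Proteins that leave the cell or live in its membranes enter the endoplasmic reticulum through the Sec61 translocon and leave it in vesicles coated by COPII, while COPI vesicles bring escaped proteins back from the Golgi. Small GTPases of the Rab and Arf families mark each membrane and call in coats and tethers, and adaptor complexes choose the cargo of clathrin vesicles. Endosomes sort what the cell takes up: retromer and sorting nexins send cargo back, ESCRT proteins send it inward, and HOPS joins late endosomes with lysosomes. Neurons rely on this traffic to supply and clear long processes.

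The deposited value is a Z-ratio, a score that compares a spot's difference between the samples with the spread of all spots on its array. It holds no fold change and no level, so the marker genes of neuroblasts could not be used to check the cells. Its direction is not stated for each array. Positive values were read as higher in 59Q (as deposited), and the main results are also given turned, that is with the sign of replicates 2 and 5 changed, which is right if the values are Cy5 over Cy3. Over the 131 genes, Pearson's r between arrays ran from -0.0215 to 0.319 within the arrays with 59Q in Cy5 (median 0.191), was -0.0812 between both arrays with 59Q in Cy3, and had a median of -0.177 between orientations, where 6 of 8 pairs lay below 0. All 6463 genes showed the same, with a median r of 0.205 within Cy5, 0.0514 between the Cy3 arrays and a median of -0.192 between orientations, where 7 of 8 pairs lay below 0. These correlations run across genes, which are not independent replicates. Replicate 3 is the thinnest array, with values for 109 of the 131 genes, against 126 to 131 on the others. The methods describe 6 replicates in different batches while the series text describes 4 biological replicates with unidentified flip-dye pairs, so p-values measure only the spread between these arrays, and their number limits the precision.

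No vesicle traffic gene passed an adjusted p under 0.05 in limma as deposited: 0 were higher and 0 lower, against 0% of all 6463 genes each way, and the adjusted p was 0.999 for every one of them. At an unadjusted p under 0.05, 3 genes were higher, namely the sorting nexins Snx5 and Snx6 and the cargo receptor Tmed3, against 0.975% of all genes. Only Sec31a, the outer coat protein of COPII, was lower at that level, against 1.64% of all genes. Snx6 and Vps41 lay above 0 on every array that measured them, where 1.64% of all genes did, and Sec31a lay below 0 on every array, where 1.41% did. The means were below 0 for 91 of the 131 genes (69.5%, against 56.9% of all genes) and above 0 for 40 (30.5%, against 43.1%), and their median was -0.128 against -0.0449.

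Read as Cy5 over Cy3, again no vesicle traffic gene passed limma, against 0.263% of all genes called higher and 0.0155% lower. At an unadjusted p under 0.05 there were 4 higher genes, Sec14l2, Snx3, Tmed3 and Vps28 (3.05%, against 6.42% of all genes), and 24 lower ones (18.3%, against 13.4%). On every array that measured them, 5 genes lay above 0 in this reading and 13 below, where 4.67% and 10.8% of all genes did. Their median mean was -0.228, against -0.160 over all genes, with 95 of 131 means below 0 (72.5%, against 65.4% of all genes) and 36 above 0 (27.5%, against 34.6%). Which reading holds decides which genes head the list, and Tmed3 was the only gene with an unadjusted p under 0.05 in both.

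**Figure D1:**
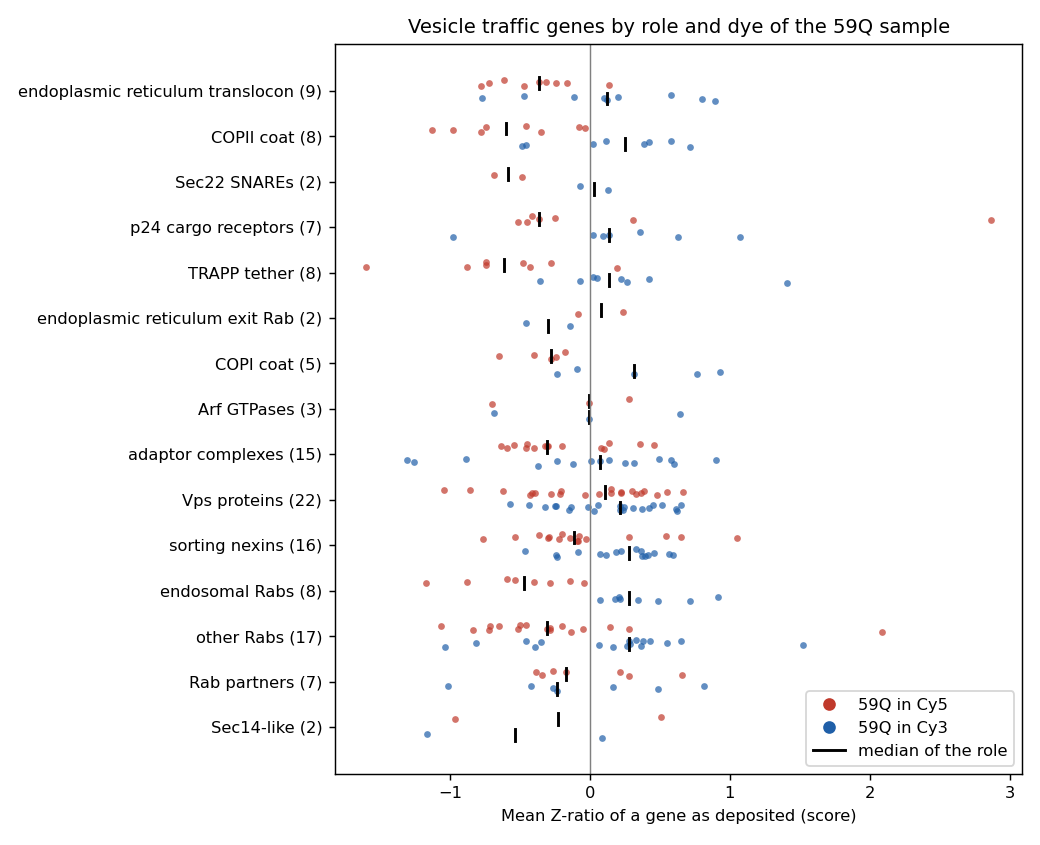
Mean Z-ratio as deposited (horizontal axis, a score with no unit) of each tested vesicle traffic gene, in rows by role with the number of genes in parentheses, for the arrays with 59Q in Cy5 (red) and in Cy3 (blue). Black bars are medians of a role; those of the COPII coat lie at -0.599 in Cy5 and 0.249 in Cy3, and those of the endosomal Rabs at -0.468 and 0.282.

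Genes of exit from the endoplasmic reticulum (28 genes, 27 tested: COPII coat, p24 cargo receptors, TRAPP tether, Sec22 and Rab1) were compared with genes of the endosome (48 genes, 46 tested: Vps proteins, sorting nexins and endosomal Rabs). The exit medians on replicates 1 to 6 were -0.839, 0.0928, -0.154, -0.160, 0.239 and -0.129. The endosome medians were 0.0804, 0.138, -0.249, -0.0642, 0.341 and 0.00782, and those of all genes -0.173, 0.139, -0.204, -0.118, 0.211 and -0.0284. The groups differed widely only on replicate 1, where exit genes lay far below both endosome genes and the rest of the array.

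Over the 6 arrays the median of the gene means was -0.233 for exit and -0.0286 for endosome, a difference of -0.204. Exit lay below endosome on 5 of 6 arrays, by -0.919, -0.0449, -0.0958, -0.102 and -0.137 on replicates 1, 2, 4, 5 and 6, and above it by 0.0954 on replicate 3, with an SD over arrays of 0.361. Replicate 1 carried most of this: without it the difference was -0.0313, the exit median was -0.0394 and 15 of 24 exit genes (62.5%) had means below 0, in place of 21 of 27 (77.8%). Of the endosome genes 25 of 46 (54.3%) lay below 0, and of all genes 56.9%, or 53% without replicate 1. The order also rests on the sign of replicate 1: with that sign turned, the exit median was 0.0983, above the endosome median of 0.0112. With the signs of replicates 2 and 5 turned, the medians were -0.322 and -0.191 and the difference -0.131. In that reading exit lay below endosome on replicates 1, 4 and 6 only, and above it on replicates 2, 3 and 5.

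By dye of the 59Q sample, the exit median was -0.450 in Cy5 and 0.114 in Cy3, and the endosome median -0.141 and 0.222. All genes showed the same turn of sign, at -0.161 and 0.159. The median dye term, the part of a value that turns with the dye, was -0.310 for exit, -0.171 for endosome and -0.159 for all genes. What does not turn with the dye, the dye-balanced mean, had medians of -0.141, 0.0179 and 0.00475.

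**Figure D2:**
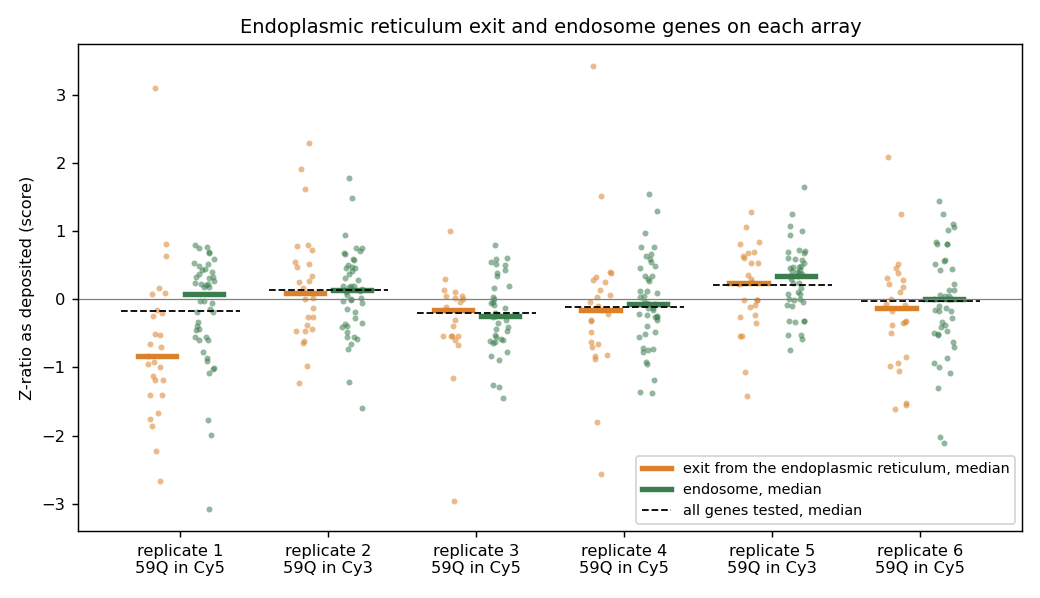
Z-ratio as deposited (vertical axis, a score) of each exit gene (orange) and endosome gene (green) on the 6 arrays, with the dye of the 59Q sample under each array; thick bars are group medians and dashed lines the median of all genes tested. The bars part on replicate 1 (-0.839 and 0.0804) and lie within 0.137 of each other on the others.

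Within the COPII coat, 7 of 8 genes had means below 0 as deposited and 8 of 8 with the sign turned. Of all genes, 56.9% and 65.4% did. The coat's median on replicate 1 was -1.29, against -0.173 for all genes. Sec31a, which builds the outer cage of the coat, had Z-ratios of -1.41, -0.432, -0.308, -1.80, -0.534 and -0.984 on replicates 1 to 6. All 6 lie below 0, and the 2 values with 59Q in Cy3 fall inside the range of the 4 in Cy5. Its mean was -0.911 ± 0.597 (SD, n = 6), the 6th smallest limma p of 6463 genes (limma adjusted p = 0.999; exact 2-sided sign-flip permutation p = 0.03125, the smallest that 6 arrays allow). This gene was singled out with that result known, so its rank is a description. Turned, the mean was -0.589 ± 0.968 (SD, n = 6; limma adjusted p = 0.342).

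TBP, the transfected factor, binds TATA boxes, so the sequence before each start site was searched for TATAAA on both strands. RefSeq promoter windows of assembly GRCm38.p6, from 250 bases before the start to 50 after, were at hand for 110 of the 137 genes, with 131 windows. TATAAA stood in 8 of them (6.11%), against 13.6% of 32851 windows of all genes. The genes were Rab11fip3, Rab3b, Rab7, Sec31a, Trappc6b, Vps13d and Vps37c. The stretch of the Sec31a window that holds it is shown because Sec31a had the smallest p among the vesicle traffic genes. It lies on the minus strand at chr5:100410176-100410235, with the match, on the opposite strand, in capitals and 185 bases before the start.
Sec31a: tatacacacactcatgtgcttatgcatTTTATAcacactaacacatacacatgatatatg
A match of letters is no evidence of a working TATA box, and the median of the 6 tested genes with a match was -0.251.

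Sec23b, an inner coat subunit of COPII, changed its sign with the dye. Its Z-ratios were -1.76, -0.311 and -0.849 on replicates 1, 4 and 6, and 0.347 and 0.818 on replicates 2 and 5, with none on replicate 3. Every value with 59Q in Cy5 lies below 0 and every one in Cy3 above, with no overlap. The same split was seen in 10.8% of all genes. Sec23b was named for the smallest dye-term p of its role, so the split goes with its choice and is a description. This also holds for Trappc3, Copg1, Rab9, Rab10, Vps35l, Snx3, Sec14l2 and Tmed3 below, each in its role. As deposited the mean was -0.352 ± 1.01 (SD, n = 5), and turned it was -0.818 ± 0.586 (limma adjusted p = 0.162). Sec16a, the scaffold of exit sites, had a mean of -0.355 as deposited and -0.638 turned. The cargo-binding paralogs Sec24a, Sec24c and Sec24d were at -0.0152, -0.481 and -0.392, and for Sec24c the lowest value, -2.67, is that of replicate 1. Sec13 was at -0.174, and Sec23ip, a partner of Sec23, was the coat-associated gene with a mean above 0, at 0.187.

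The transcription factors of the endoplasmic reticulum stress response bind motifs with the core TGACGTG, which stood in 4 of the 131 windows (3.05%), against 2.01% of all windows, in Arf1, Copb2 and Sec24d. The longer endoplasmic reticulum stress element, CCAAT and CCACG with 9 bases between them, stood in 0 of the 131, against 0.119%. The Sec24d stretch is shown as the match in an exit coat gene, on the plus strand at chr3:123267436-123267495, with the core in capitals 26 bases before the start.
Sec24d: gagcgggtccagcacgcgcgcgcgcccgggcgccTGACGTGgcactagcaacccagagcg
The 3 genes with this core had a median mean of -0.232 as deposited and -0.0252 turned.

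Tmed3, a p24 protein that rides COPII and COPI vesicles as a cargo receptor, had the highest mean of all vesicle traffic genes in both readings. Its single clone gave 3.09, 3.42 and 2.09 on replicates 1, 4 and 6, -0.981 on replicate 2, and no value on replicates 3 and 5. The 3 values with 59Q in Cy5 are far above the 1 value in Cy3, which lies below 0. The mean was 1.91 ± 2.01 (SD, n = 4; limma adjusted p = 0.999), the dye-balanced mean was 0.944, and the turned mean was 2.40 ± 1.10 (limma adjusted p = 0.0666). The other 6 p24 genes had means from -0.236 (Tmed10) to 0.418 (Tmed5). Of all 7, 4 lay below 0 as deposited and 6 turned, against 56.9% and 65.4% of all genes.

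The TRAPP tether, which catches exit vesicles and activates Rab1, had 7 of 8 tested means below 0 in both readings. The shares of all genes were 56.9% as deposited and 65.4% turned. Trappc3, in the core of the complex, gave -1.41, -0.543, -0.0331 and -1.52 with 59Q in Cy5 and 2.29 and 0.527 with 59Q in Cy3. The orientations do not overlap. Its mean was -0.114 ± 1.42 (SD, n = 6) as deposited and -1.05 ± 0.830 turned (limma adjusted p = 0.140). Trappc9, a subunit of TRAPPII, was at -0.518 ± 0.911 (SD, n = 6), with -2.22 on replicate 1 and values from -0.874 to 0.111 on the others. Rab1a and Rab1b, the GTPases of this step, had means of 0.00832 and -0.104 and moved alike from array to array, lowest on replicates 1 and 5 (-1.86 and -1.42 for Rab1a, -1.12 and -1.06 for Rab1b). The SNARE Sec22b was at -0.280. Its relative Sec22a was at -0.377 (n = 4), with -1.55 on replicate 6 and values from -0.124 to 0.172 on the other arrays that measured it.

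At entry into the endoplasmic reticulum, 8 of 9 tested genes had means below 0 in each reading, with a median of -0.165 as deposited and -0.357 turned. Over all genes 56.9% and 65.4% did, with medians of -0.0449 and -0.160. Sec61g, a small subunit of the channel, gave -1.76, -0.364, -0.668, -0.409, 0.138 and -0.286 on replicates 1 to 6. All arrays but replicate 5 lie below 0, and the mean was -0.559 ± 0.645 (SD, n = 6), or -0.483 turned. Sec61a1 and Sec61a2, which form the pore, were at -0.273 and -0.143, and Sec11c, a signal peptidase subunit, at -0.287. Sec63, which couples the channel to the chaperone BiP, was at 0.172, with 0.994 and 0.799 in Cy3 against 0.247, -0.235 and -0.945 in Cy5. The 4 subunits of the TRAP complex, Ssr1 to Ssr4, lay between -0.401 and -0.0747. Ssr3 held -2.01 on replicate 1 and between -0.493 and 0.337 on the others. Ssr2 turned to 0.349 in the Cy5 over Cy3 reading, with its 2 clones at -0.216 and 0.914.

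COPI coat genes had 4 of 5 tested means below 0 as deposited and 5 of 5 turned, against 56.9% and 65.4% of all genes. Copg1, a gamma subunit that binds cargo, gave -0.795, -0.441, -0.324 and -1.05 with 59Q in Cy5 and 0.705 and 0.824 with 59Q in Cy3. Its 2 clones moved together across arrays (r = 0.910), and the orientations do not overlap. The mean was -0.179 ± 0.776 (SD, n = 6) as deposited and -0.689 ± 0.265 turned (limma adjusted p = 0.126). Its paralog Copg2 was at 0.193 and -0.429 in these readings. Cope and Copz1 were at -0.344 and -0.191, the latter over 3 clones. Among the Arf GTPases, which recruit this coat, Arf1 was at -0.232, Arf3 at 0.185 and Arf4 at -0.253, and turned, at 0.225, 0.189 and -0.683.

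**Figure D3:**
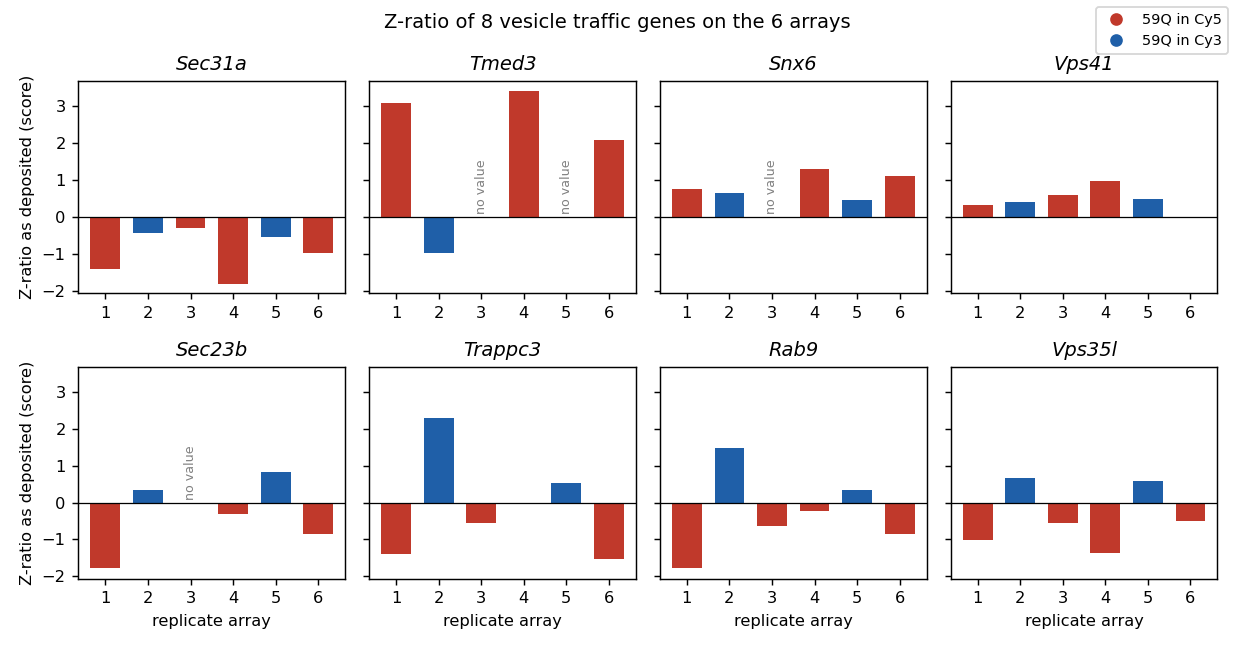
Z-ratio as deposited (vertical axis, a score) on the 6 replicate arrays (horizontal axis) for 8 vesicle traffic genes, with 59Q in Cy5 in red and in Cy3 in blue. Sec31a, Snx6 and Vps41 keep their sign in both colours, while Sec23b, Trappc3, Rab9 and Vps35l lie below 0 in red and above 0 in blue, and Tmed3 is the reverse.

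Among endosome genes, Snx6 had the highest mean as deposited. This sorting nexin bends membranes into tubules together with retromer. It gave 0.760, 0.657, 1.29, 0.470 and 1.11 on replicates 1, 2, 4, 5 and 6 and no value on replicate 3. All 5 values lie above 0, and those with 59Q in Cy3 are both under the lowest in Cy5. The mean was 0.858 ± 0.337 (SD, n = 5), the 11th smallest limma p of 6463 (limma adjusted p = 0.999; exact 2-sided sign-flip permutation p = 0.0625, the smallest that 5 arrays allow). As with Sec31a, that rank was known when the gene was chosen. Turned, the mean was 0.407 ± 0.909 (limma adjusted p = 0.508).

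Snx5, which forms the same kind of dimer as Snx6, was at 0.571 ± 0.581 (SD, n = 6), above 0 on 4 of 6 arrays and at -0.0225 and -0.104 on replicates 1 and 5, and turned it was at 0.294. Its clones had means of 0.328 and 0.814. Their partner Snx2 was at -0.233, and Snx32, a neuronal paralog, at -0.105. The retromer core did not follow Snx5 and Snx6: Vps35, its scaffold, was at -0.520 ± 1.26, Vps29 at -0.207 ± 0.902 and Vps26a at 0.321 ± 0.339. Turned, Vps35 and Vps29 were at -0.866 and -0.617. Snx3, which steers retromer without bending membranes, gave 0.492, 0.498, 0.632 and 0.569 with 59Q in Cy5 and -0.411 and -0.517 with 59Q in Cy3. Its turned mean was 0.520 ± 0.0753 (SD, n = 6; limma adjusted p = 0.159), but its 2 clones had turned means of -0.297 and 1.34 and ran against each other over the arrays.

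Vps41, a HOPS subunit, gave 0.323, 0.412, 0.603, 0.971, 0.485 and 0.00933 on replicates 1 to 6. No value lies below 0, though that of replicate 6 is close to it, and the orientations overlap. The mean was 0.467 ± 0.318 (SD, n = 6; exact 2-sided sign-flip permutation p = 0.03125; limma adjusted p = 0.999). Turned, it was 0.168 ± 0.574, above 0 on 4 of 6 arrays (exact 2-sided sign-flip permutation p = 0.469). Its 3 clones had means of 0.751, 0.651 and -0.172, so the sign shared by all arrays belongs to the average of the clones. Of the 6 HOPS and CORVET genes, 5 had means above 0 (Vps8, Vps11, Vps33a, Vps39 and Vps41, from 0.0512 to 0.467) and Vps16 was at -0.406, with -2.02 on replicate 6. With the sign turned 4 of 6 lay above 0 and the median went from 0.193 to 0.104. Among all genes, 43.1% had means above 0 as deposited and 34.6% turned.

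The ESCRT genes had 3 of 6 means on each side of 0 as deposited, from -0.267 (Vps25) to 0.288 (Vps28), and 4 of 6 below 0 turned, with medians of 0.00128 and -0.216. Vps28, of ESCRT-I, gave 0.324 to 0.835 with 59Q in Cy5 and -0.141 and -0.339 with 59Q in Cy3, with a turned mean of 0.448 (limma adjusted p = 0.213). Vps35l, the scaffold of the retriever complex, gave -1.003, -0.547, -1.36 and -0.503 in Cy5 and 0.678 and 0.572 in Cy3. No values overlap, and the mean was -0.361 ± 0.827 (SD, n = 6) as deposited and -0.778 ± 0.338 turned (limma adjusted p = 0.104). Vps26c, its partner subunit on 3 clones, was at 0.331 ± 0.399, above 0 on 5 of 6 arrays, and turned at 0.187. Its clones had turned means of 0.384, 0.253 and -0.432, with a median r of -0.612 between them. The value of replicate 6, 1.01, came from 1 clone. Vps72 matches the naming rule by its letters but is a chromatin protein, and it was at -0.319. Leaving it out changed the endosome median from -0.0286 to -0.0283.

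Among the endosomal Rabs, 7 of 8 had means below 0 as deposited and 8 of 8 turned, against 56.9% and 65.4% of all genes. Rab9, which guides return from late endosomes to the Golgi, gave -1.78, -0.639, -0.217 and -0.865 with 59Q in Cy5 and 1.49 and 0.341 with 59Q in Cy3. The orientations do not overlap, and the means were -0.278 ± 1.12 (SD, n = 6) as deposited and -0.888 ± 0.627 turned (limma adjusted p = 0.139). The recycling GTPases Rab11a and Rab14 showed the same order, with turned means of -0.558 and -0.506, and both Rab14 clones moved together (r = 0.953), while those of Rab11a did not (r = -0.118). Rab21 of early endosomes was at -0.565 ± 1.15 (SD, n = 5), with -2.11 on replicate 6 and 1.08 on replicate 5. Rab5a and Rab7, the classical marks of early and late endosomes, lay near 0, at -0.0264 and -0.168.

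**Figure D4:**
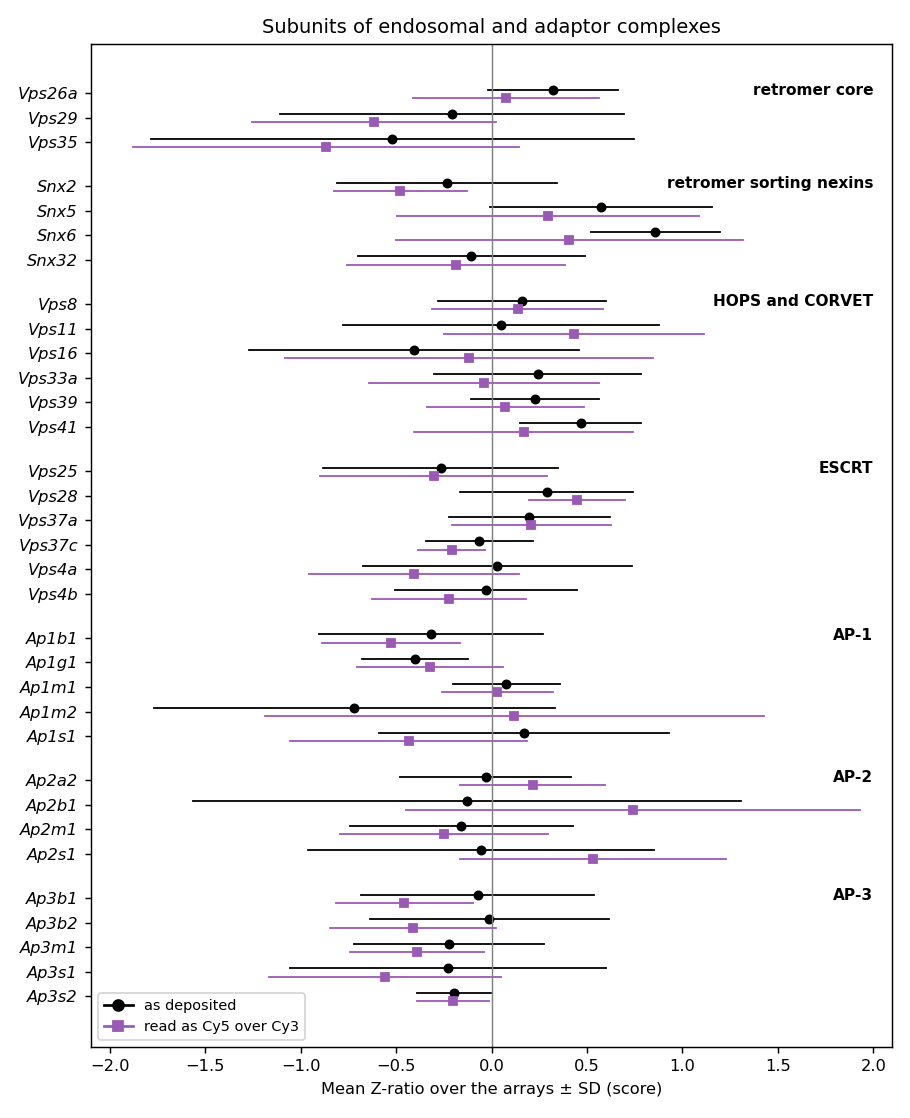
Mean Z-ratio ± SD over the arrays (horizontal axis, a score) of the subunits of endosomal and adaptor complexes, as deposited (black circles) and read as Cy5 over Cy3 (purple squares). The AP-3 subunits lie below 0 in both readings, 5 of 6 HOPS and CORVET subunits lie above 0 as deposited, and most SD bars cross 0.

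Several endosome genes share a promoter feature. The palindrome of the CLEAR motif that the lysosomal regulator TFEB binds, CACGTG with GT before it and AC after, stood in 7 of 131 windows (5.34%), against 0.326% of all windows, in Rab21, Rab24, Rab5a, Vps16, Vps26a and Vps33a. The motif is its own reverse complement, so both strands give the same matches. The share is a description, as the motif was chosen with the gene list in view. The stretches of the 5 genes with the match before the start are shown, with the motif in capitals. They lie at chr2:130424260-130424319 on the plus strand for Vps16, chr5:123573016-123573075 on the minus strand for Vps33a, chr17:53479112-53479171 on the plus strand for Rab5a, chr10:115315592-115315651 on the minus strand for Rab21 and chr10:62486955-62487014 on the minus strand for Vps26a.
Vps16: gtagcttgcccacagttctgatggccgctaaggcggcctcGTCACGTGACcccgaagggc
Vps33a: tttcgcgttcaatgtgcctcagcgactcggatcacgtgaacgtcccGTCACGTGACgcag
Rab5a: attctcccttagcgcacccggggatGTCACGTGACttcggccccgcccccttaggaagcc
Rab21: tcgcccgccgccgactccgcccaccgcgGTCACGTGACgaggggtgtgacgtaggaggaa
Vps26a: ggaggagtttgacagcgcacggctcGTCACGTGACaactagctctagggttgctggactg
As deposited, genes with this motif did not share a sign. Rab21, Rab24 and Vps16 had means of -0.565, -0.418 and -0.406, Rab5a was at -0.0264, and Vps33a and Vps26a were at 0.242 and 0.321, with a median of -0.216 over the 6. Turned, Vps26a at 0.0745 was the 1 gene above 0, the others ran from -0.841 (Rab21) to -0.0386 (Vps33a), and the median was -0.141.

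Adaptor complexes had 13 of 15 tested means below 0 as deposited and 9 of 15 turned, against 56.9% and 65.4% of all genes. In AP-3, which sorts cargo for lysosomes and synaptic vesicles, all 5 subunits were below 0 in both readings, with medians of -0.197 and -0.411. AP-2, the adaptor of endocytosis at the plasma membrane, changed with the reading: 4 of 4 means were below 0 as deposited and 3 of 4 above 0 turned. Ap2b1, its beta subunit, held -2.90 on replicate 2 and between -0.0797 and 1.27 on the other arrays. In AP-1, of the trans-Golgi and endosomes, Ap1m2 had the lowest mean of the adaptors as deposited, -0.719 ± 1.05 (SD, n = 6), with -2.57 on replicate 5, -1.01 and -0.982 on replicates 1 and 3, and values just above 0 on the others. Turned, it was at 0.119 and Ap3s1 of AP-3 was the lowest, at -0.559. Ap1m2 and Sec31a were the 2 genes with an unadjusted p under 0.05 for a lower dye-balanced mean, against 1.5% of all genes, and Snx6 and Tmed3 those for a higher one, against 1.28%. None passed the adjusted threshold.

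Of the other 17 Rabs, 12 had means below 0 as deposited and 13 turned, against 56.9% and 65.4% of all genes. Rab10, which acts in polarized secretion, gave -0.788, -0.491, -0.137 and -0.407 with 59Q in Cy5 and 0.909 and 0.398 in Cy3, again without overlap. Rab29, a Rab of the trans-Golgi, had a mean of 0.693 ± 1.30 (SD, n = 6) that rests on 3.05 on replicate 2, and turned it was at -0.324. Rab12 had the largest single value of the vesicle traffic genes, 7.01 on replicate 3, and its mean of 1.24 ± 2.98 (SD, n = 6) rests on it, as the other 5 arrays gave -1.36 to 1.23. Among Rab partners, Rab3il1, an exchange factor, was at 0.738 ± 0.691 (SD, n = 4) as deposited and -0.0775 turned, and Rab3gap1 at 0.0652 and 0.274. The naming rule also took the lipid-binding proteins Sec14l2 and Sec14l4. Sec14l2 gave 0.835, 0.138 and 0.555 in Cy5 and -1.45 and -0.872 in Cy3. Sec14l4 had -3.25 on replicate 3 and between -0.247 and 0.368 on the others.

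The dye term was tested across all genes with limma, and no gene passed. It was above 0 for 41 vesicle traffic genes (31.3%, against 35% of all genes) and below 0 for 90 (68.7%, against 65%). At an unadjusted p under 0.05 the vesicle traffic genes held 3 with a higher dye term, Sec14l2, Snx3 and Tmed3 (2.29%, against 5.91% of all genes). Another 11 had a lower one (8.4%, against 10.2%), among them Trappc3 at -1.14 ± 0.317 (SE), Rab9 at -0.895 ± 0.278, Sec23b at -0.778 ± 0.276, Vps35l at -0.739 ± 0.215 and Copg1 at -0.708 ± 0.207 (limma adjusted p = 0.224, 0.246, 0.266, 0.231 and 0.232). The exit group gave 3 of these 11 and the endosome group 5. Both shares lie close to or under that of all genes. Whether these terms come from 59Q or from the dye cannot be told apart while the direction is unknown.

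**Figure D5:**
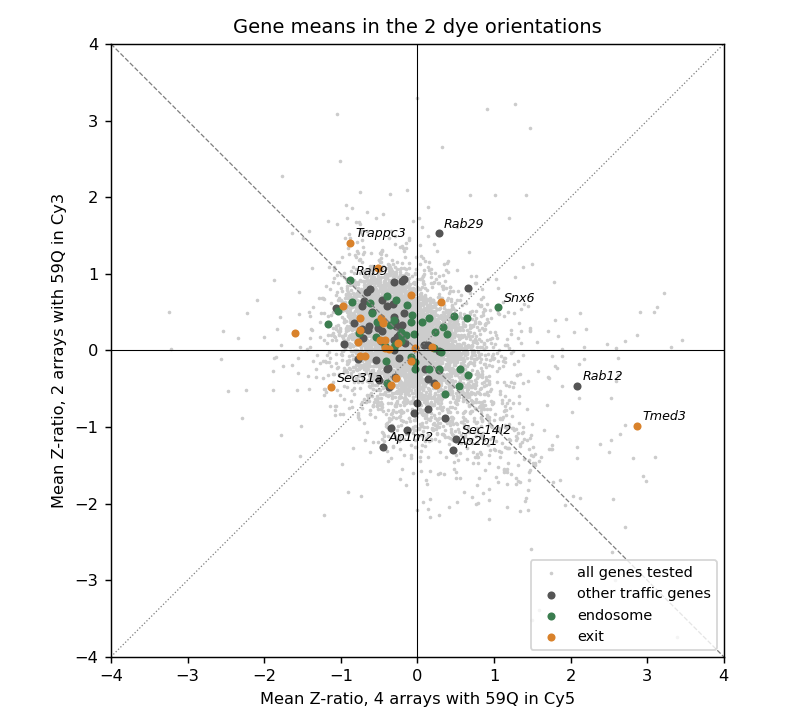
Mean Z-ratio as deposited of each gene over the 4 arrays with 59Q in Cy5 (horizontal axis) and over the 2 with 59Q in Cy3 (vertical axis), for all genes tested (grey) and the exit (orange), endosome (green) and other vesicle traffic genes (dark grey); 15 genes outside the axes are not drawn. Genes near the dotted line keep their sign in both orientations (Sec31a at -1.13 and -0.483, Snx6 at 1.05 and 0.564), and genes near the dashed line turn their sign with the dye (Tmed3, Trappc3, Rab9, Sec14l2).

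Where a gene has several clones, they often differed. Of 34 such genes, 19 had clone means of 1 sign, and the median r between clones of a gene over the arrays was 0.116 over the 31 genes with enough values. Tested clone by clone with limma, no clone passed as deposited. Read as Cy5 over Cy3, 3 clones passed an adjusted p under 0.05 as higher, where 1.89% of all clones did, and 0 as lower, where 0.0486% did. They were the Tmed3 clone (2.40, limma adjusted p = 0.0409), 1 of 2 Snx3 clones (1.34, limma adjusted p = 0.0241) and 1 of 2 Ap2a2 clones (1.01, limma adjusted p = 0.0424). The second Snx3 and Ap2a2 clones had means of -0.297 and -0.580 in that reading.

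A Z-ratio of 1.96 above or below 0, the threshold of the methods, was also applied to each array on its own. Above it were 1, 2, 1, 1, 0 and 1 vesicle traffic clones on replicates 1 to 6, where 3.16%, 1.33%, 1.96%, 1.34%, 1.07% and 2.04% of all clones were. Beyond it below 0 were 6, 3, 2, 2, 3 and 3 clones, where 1.79%, 3.66%, 0.637%, 1.5%, 3.08% and 2.3% of all clones were. Tmed3 was above it on replicates 1, 4 and 6, and Rab3ip, an exchange factor of Rab8, was beyond it below 0 on replicates 1 and 5. No other vesicle traffic gene passed it in the same direction on more than 1 array, and no clone's mean over the arrays reached it as deposited. Turned, the Tmed3 clone did, at 2.40, while the Rab3ip values of replicates 1 and 5 took opposite signs and its mean was 0.113.

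Other genes of the pathway, in 8 lists, held 110 tested genes, and 0 of them passed in limma in either reading. They were SNAREs, exit GTPases and receptors, Golgi tethers, Arf regulators, clathrin and endocytosis, further ESCRT proteins, the exocyst and the Rab cycle. As deposited, 1 was higher at an unadjusted p under 0.05 (0.975% of all genes were), the Golgi tether Golgb1 (giantin) at 0.776 ± 0.525 (SD, n = 5), and 1 lower (1.64% of all genes were), Napg, which helps take SNAREs apart, at -0.665 ± 0.655 (SD, n = 5). Turned, 4 were higher and 20 lower at that level, where 6.42% and 13.4% of all genes were. The list medians ran from -0.160 for Arf regulators to -0.00599 for clathrin and endocytosis as deposited, and turned from -0.382 for the Rab cycle to -0.0860 for the exocyst. Gbf1, the exchange factor that loads Arf1 for COPI, had the lowest turned mean of those named by a turned p under 0.01, at -1.08, and the SNARE regulator Scfd1 the highest, at 1.09.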

How the data were processed

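RNA of 59Q and N3 transfected Neuro-2a cells was compared on 6 two-colour cDNA arrays. The authors labelled it by tyramide signal amplification, scanned the slides with an Axon scanner, read them with GenePix Pro and applied a Z score transformation. Their versions are not given in the sources read here. The deposited value of each spot is a score, the Z-ratio. Duplicate spots were averaged into 15600 clones, and clones into genes by current symbols. These came from a GRCm38.p6 gene table for the 18172 spots found in it by Entrez number, and otherwise from the platform annotation. Of 31200 spots, 18384 had 1 symbol, 514 several and 12302 none listed. Among the spots with several symbols, 4 symbol combinations held a name that matches the naming rule, and their spots were not used. R 4.3.3 with limma 3.58.1 fitted every gene that had a value on 4 or more of the 6 arrays, by an intercept alone or with a dye term (lmFit, eBayes), with Benjamini-Hochberg adjustment over all genes. With fewer arrays, values on 2 in 3 arrays were required. Sign-flip permutations were exact and 2-sided. Ap1s2, Copa, Sec62, Snx13, Trappc10 and Vps13d had too few values.

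Members, lists and motifs were chosen with earlier results of these data known. Genes named are Sec31a, Snx6, the smallest p per role for the mean and for the dye term, and members on 3 or more clones; others complete a complex, a pair of paralogs or a small count, or were chosen after their values were seen. On simulated data of 6463 genes, all shifted genes were placed in 1 run. The noise was independent and normal, with each gene's spread around its plain mean, which includes its dye part. Each gene's fitted dye term was then added, so the dye part entered again. The mean test recovered 8, 41, 46 and 49 of 50 genes shifted by a score of 1, 2, 3 and 4. It also called 3 unshifted genes. Many shifted genes in a run loosen the adjusted threshold, so these counts do not give the chance of finding a lone shifted gene. Alternatives covered direction, dye, arrays, centring, scaling, quantile normalization, missing values, clone summary, clipping and the variance model. Promoter windows are RefSeq's.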

Additional observations from a re-analysis of the deposited data

Results flagged for a closer look

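In 18 genes every array with 59Q in Cy5 lay on one side of 0 and every array with 59Q in Cy3 on the other, that is 9.92% of the tested vesicle traffic genes below 0 in Cy5 and 3.82% above it, against 10.8% and 4.67% of all genes. Of these, 13 lay below 0 in Cy5 and above 0 in Cy3, with dye terms of -1.14 for Trappc3, -0.895 for Rab9, -0.807 for Rab3d, -0.778 for Sec23b, -0.739 for Vps35l, -0.708 for Copg1, -0.558 for Rab14, -0.555 for Rab10, -0.541 for Rab11a, -0.496 for Snx15, -0.476 for Ap1b1, -0.449 for Trappc1 and -0.275 for Tmed2. The other 5 ran the opposite way, with dye terms of 1.93 for Tmed3, which had 1 array in Cy3, 0.836 for Sec14l2, 0.506 for Snx3, 0.492 for Vps13b and 0.396 for Vps28. The limma dye term passed an adjusted p under 0.05 in none of them (limma adjusted p from 0.169 for Tmed3 to 0.493 for Tmed2), so a difference between orientations was not shown.

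In 9 genes 1 array stood far from the other 3 with 59Q in Cy5. On replicate 3 these were Sec14l4 (-3.25), Rab5a (-1.25), Rab11fip5 (-0.664) and Vps37a (-0.307). Replicate 1 stood apart for Ssr3 (-2.01) and Ap4s1 (-0.581), replicate 6 for Rab11b (-0.705) and Sec24a (-0.333), and replicate 4 for Sec61a1 (0.182). They are 9 of 106 genes checked, and chance flags about 1 in 20.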

How the results depend on the processing

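No vesicle traffic gene passed under any alternative run on genes: direction, dye term, arrays left out or used, centring, scaling, quantile normalization, missing values, clone summary, clipping and variance model. The naming rule on current symbols also gave 137 genes, with 0 renamed. Over all genes, the count that passed as deposited went from 0 to 18 with the sign of replicates 2 and 5 turned, and that count ran from 0 to 30 when each replicate was left out (30 without replicate 5, and 0 without each of the others). Clone by clone, 3 vesicle traffic clones passed with the sign turned, a test chosen after seeing the data, as were the endosome group without Vps72 and the turned fits without each replicate. The dye term called 0 genes, 1 after quantile normalization, 4 with spots clipped at 5, and 0 to 4 without each replicate (4 without replicate 2). The exit median was 0.0983 and the exit minus endosome difference 0.0871 with the sign of replicate 1 turned, with 40.7% of exit means below 0; without replicate 3 the endosome median was 0.0404, with 43.5% below 0. Of 31 genes named by rule, the mean changed sign in 6 with replicates 2 and 5 turned, in 13 with replicate 1 turned, and in 8 of 29 without replicate 1; these were means within 1 SE of 0 in the main or the other setting. Sec31a ran from -1.03 to -0.733 and Snx6 from 0.749 to 0.955 over the fits without 1 replicate. The causes were not tested. No paired analysis was possible because the flip-dye pairs are not identified and the 2 dye groups share no replicate numbers. Low values could not be judged, as the score holds no signal over background.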
